A study of Mus musculus with 12 samples.

Results

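The matrix metalloproteases (Mmp), the secreted ADAMTS proteases (Adamts) and the tissue inhibitors of metalloproteases (Timp) were followed across mouse liver organoids and sorted liver cells. Members were all genes whose array symbol begins with Mmp and a digit, or is Adamts or Timp followed by a number alone. Of 19937 genes on array rows that name 1 gene, 44 were members, with 22 Mmp, 18 Adamts and 4 Timp genes. Expression is given as log2 intensity throughout, so that a difference of 1 is a doubling.

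Metalloproteases of these families are zinc enzymes that cut proteins of the extracellular matrix and the cell surface. Most are made as inactive proenzymes, and TIMP proteins block them once active. In the liver they are known for remodelling of matrix during injury, fibrosis and duct formation, and Mmp7 (matrilysin), a small protease made by epithelia, is a known marker of injured and ductal epithelium.

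All 12 arrays (Affymetrix MoGene 1.0 ST, total RNA) came from mice of C57Bl6 background, in 4 groups of 3 libraries. Yap-on organoids carried induced Yap, the transcriptional coactivator that Hippo signalling restrains, for 3 weeks in the liver and then through 2 weeks of culture with doxycycline. Yap-off organoids had the same 3 weeks of Yap in the liver, followed by 2 weeks of culture without doxycycline. Wild-type organoids were grown for 2 weeks under conditions called wild-type. The uninduced group, titled hepatocyte, was made of liver cells positive for YFP (a yellow fluorescent protein) that had been isolated by FACS. The age and sex of the animals, the promoter behind the Yap transgene and the origin of the YFP label are not given in the sources used here. The labels are also silent on whether the 3 libraries of a group are different animals. All p-values therefore rest on a spread between libraries that may be technical.

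Median intensity per array lay between 13.6 and 15.6 on the linear scale. Yap1 stood between 7.28 and 7.45 in the Yap-on and between 6.88 and 7.35 in the Yap-off libraries, and these groups overlapped (log2 difference 0.23, SE 0.56, limma adjusted p = 0.825). Hepatocyte markers (13 of 14 measured) had medians of 3.04 to 3.23 in the Yap-on libraries, against 9.25 to 11.55 in the other 9. The libraries labelled wild-type organoid and uninduced did not group by label. The macrophage list (14 of 14 measured) was high in 3 libraries, with medians of 10.35 (labelled wild-type organoid 1), 10.98 (wild-type organoid 3) and 11.29 (uninduced 2), against 3.14 to 4.34 in the other 9. Correlations between libraries of a group, across genes that are not independent replicates, ran from 0.992 to 0.995 for Yap-on, 0.975 to 0.983 for Yap-off, 0.800 to 0.970 for wild-type organoids and 0.822 to 0.989 for uninduced cells. Every result that rests on the wild-type organoid or uninduced group is therefore also given without the libraries labelled wild-type organoid 2 and uninduced 2, which stood apart from the rest of their groups. Wild-type organoid 2 correlated most with uninduced 3 (r = 0.955), and uninduced 2 with wild-type organoid 3 (r = 0.951). Without them the wild-type organoid libraries left are high in the macrophage list, and the uninduced libraries left are low in it.

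Promoter windows from RefSeq (GRCm38.p6, 250 bases before to 50 after the annotated start) were matched for 30 of the 44 members. For each member the window at its most upstream annotated start was used. Mmp7 had 2 windows, and the downstream window is not described here. The set of all 32851 windows, used for the shares below, was not reduced in this way. Below are those of 3 members that separated Yap-on from Yap-off organoids, shown because the sections that follow turn on them. Capitals mark matches on either strand to 4 motifs. These were TGANTCA (AP-1), GGAATG (the TEAD partners of YAP), CTTTGNT (TCF/LEF) and TATAAA (the core promoter element known as the TATA box). No match overlapped another.
Mmp7 (chr9:7691840-7692139, plus strand): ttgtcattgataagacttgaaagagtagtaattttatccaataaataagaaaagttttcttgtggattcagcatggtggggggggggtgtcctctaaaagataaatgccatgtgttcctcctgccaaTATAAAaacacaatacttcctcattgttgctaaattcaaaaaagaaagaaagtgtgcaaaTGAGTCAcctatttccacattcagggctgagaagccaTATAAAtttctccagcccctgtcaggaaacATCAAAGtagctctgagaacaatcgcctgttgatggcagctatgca
Mmp28 (chr11:83462991-83463290, minus strand): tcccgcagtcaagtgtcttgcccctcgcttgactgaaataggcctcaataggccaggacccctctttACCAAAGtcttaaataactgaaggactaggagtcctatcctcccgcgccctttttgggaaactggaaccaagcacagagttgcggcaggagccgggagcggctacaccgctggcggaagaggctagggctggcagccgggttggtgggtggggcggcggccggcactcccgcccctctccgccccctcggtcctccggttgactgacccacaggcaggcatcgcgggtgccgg
Timp4 (chr6:115252156-115252455, minus strand): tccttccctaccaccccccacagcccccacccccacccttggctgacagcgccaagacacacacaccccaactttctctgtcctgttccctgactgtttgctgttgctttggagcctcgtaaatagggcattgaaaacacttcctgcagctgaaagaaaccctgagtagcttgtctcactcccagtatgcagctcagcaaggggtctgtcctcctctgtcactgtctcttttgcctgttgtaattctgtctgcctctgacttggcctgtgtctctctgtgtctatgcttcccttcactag

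The Mmp7 window held 1 AP-1 match at -63, TATA matches at -123 and -26 and 1 TCF/LEF match at 5, counted from the annotated start. Mmp28 had 1 TCF/LEF match at -183, and the Timp4 window had no match to any of the 4 motifs. None of these 3 windows held the TEAD letters, which occurred in 2 of the 30 member windows (those of Adamts13 and Timp1) and in 14.7% of all 32851 windows. Such matches describe the letters of these windows only.

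AP-1 letters were found in 7 member windows (23.3% of 30, against 7.81% of all 32851 windows), and all 7 belonged to neighbouring Mmp genes. On the GRCm38.p6 annotation 10 Mmp genes follow each other on chromosome 9 with no other protein-coding gene between them, in the order Mmp13, Mmp12, Mmp1b, Mmp3, Mmp1a, Mmp10, Mmp8, Mmp27, Mmp20 and Mmp7. In this cluster 7 of 10 windows held both an AP-1 and a TATA match, and none of the 20 other member windows held both. The AP-1 matches (capitals) with 8 bases on either side are shown in the direction of each gene, because Mmp7 is one of these neighbours.
Mmp13 (chr9:7272471-7272493): caaagtggTGACTCAtcactatc
Mmp1b (chr9:7388105-7388127): acaaagccTGAGTCAtatagcct
Mmp3 (chr9:7445768-7445790): agcaattaTGAGTCAgttttcgg
Mmp1a (chr9:7464060-7464082): gtcaaccaTGAGTCAcatagcct
Mmp10 (chr9:7502271-7502293): cacccatgTGAGTCAtgcttagt
Mmp20 (chr9:7628128-7628150): ttgagacaTGAATCAtcacttac
Mmp7 (chr9:7692019-7692041): tgtgcaaaTGAGTCAcctatttc

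Yap-on and Yap-off organoids shared their time with Yap in the liver and differed in whether Yap stayed on in culture. They also differed completely in Xist, the transcript of the inactive X chromosome, which stood between 3.14 and 3.20 in the Yap-on and between 8.49 and 9.20 in the Yap-off libraries. The sex of the animals is not given, so a difference in sex and the difference in Yap cannot be told apart in any value of this comparison. Mmp7 was far higher with Yap on and Mmp28 moderately higher, whereas the inhibitor Timp4 and the protease Mmp19 were lower. Adamts8 and Adamts12 were also called lower, by small amounts at dim signal. In the fit of all 12 arrays (limma, Benjamini-Hochberg adjustment over all genes, called under 0.05) 2 members rose and 4 fell, and 38 were not called. This share of 13.6% stood beside 11.5% of all 19937 genes (7.09% higher and 4.36% lower). When only the 6 Yap-on and Yap-off arrays were fitted, 2 members rose and 11 fell, or 29.5%, beside 31.2% of all genes (19.1% higher and 12% lower). By either fit the families as a whole were called about as often as genes in general, counting both directions together. More members fell than rose, whereas more of all genes rose than fell. The split of the member calls changed with the scaling of the arrays, as given below, and was not tested.

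**Figure D1:**
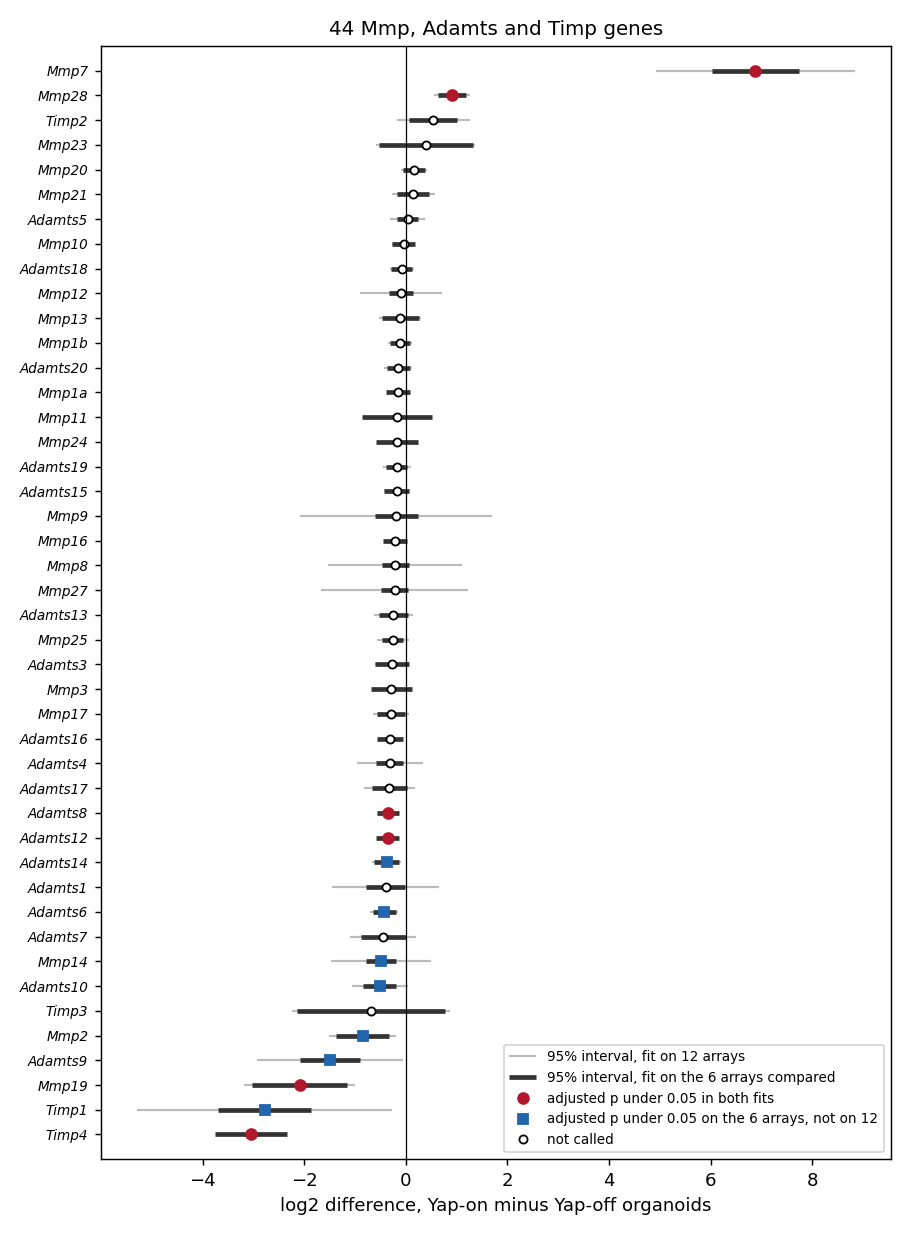
Log2 difference of each of the 44 members between Yap-on and Yap-off organoids, with 95% intervals from the fit on 12 arrays (grey) and on the 6 arrays compared (black). Mmp7 lies far to the right at 6.88, Timp4, Timp1 and Mmp19 lie to the left between -3.05 and -2.09, and most other members lie close to 0.

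Mmp7 stood at 11.94, 11.96 and 11.93 in the Yap-on libraries, against 5.96, 4.45 and 4.78 in the Yap-off libraries. The Yap-on libraries lay close together, and the groups were far apart. The log2 difference was 6.88 (SE 0.87, limma adjusted p = 0.000793), or 118-fold. The call held in each of the 17 alternatives, with differences from 6.57 to 7.33.

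Among the other libraries Mmp7 was at 3.91, 7.20 and 3.54 in wild-type organoids 1 to 3 and at 3.59, 5.37 and 3.94 in uninduced cells 1 to 3. Libraries labelled wild-type organoid 2 and uninduced 2 were thus the highest of their groups. Mmp7 did not follow the duct keratin Krt19 in every library. Krt19 ran from 12.01 to 12.25 in the Yap-on libraries. It was at 10.21 and 9.82 in the libraries labelled uninduced 1 and 3, at which Mmp7 was at 3.59 and 3.94. In the library labelled wild-type organoid 2 Krt19 was at 9.28 and Mmp7 at 7.20. The other biliary markers were split in the libraries labelled uninduced 1 and 3. Krt7 was high there, at 9.83 and 9.79, as were Sox9 and Onecut1. Epcam (3.76 and 4.13) and Muc1 (3.43 and 3.04) were low like Mmp7, as were Prom1 and Cldn4. Epcam ran from 8.64 to 8.84 and Muc1 from 9.15 to 9.71 in the Yap-on libraries. The same markers were split in wild-type organoid 2. Krt7 (10.46), Sox9 (8.09) and Onecut1 (7.72) were high there. Epcam was at 4.95, Muc1 at 3.05, Prom1 at 3.86 and Cldn4 at 4.95. Cftr was dim throughout. A link between Mmp7 and these markers was not tested.

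Mmp28 (epilysin), a protease known from epithelia, reached 4.58, 4.58 and 4.64 in the Yap-on libraries, against 3.48, 3.77 and 3.82 in the Yap-off libraries. The groups did not overlap, and the difference of 0.91 (SE 0.16, limma adjusted p = 0.00493) was 1.88-fold. It was called in all 16 other alternatives and missed only the requirement of a 2-fold change. The wild-type organoids, at 3.83, 3.37 and 3.43, and the uninduced cells, at 3.67, 3.44 and 3.28, all lay below the Yap-on libraries and close to or below the Yap-off ones. The Yap-off values lay close to the 95th percentile of 1027 olfactory receptor genes on the same arrays (3.49, 3.57 and 3.65). These genes are used here to describe dim rows. Mmp28 exceeded the olfactory receptor percentile in 9 of 12 libraries, so dim signal limits the size of its differences.

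Mmp19, a widely expressed protease of basement membrane proteins, was at 3.20, 3.25 and 3.12 in the Yap-on libraries, against 4.37, 6.11 and 5.36 in the Yap-off libraries. It was lower with Yap on (log2 difference -2.09, SE 0.49, limma adjusted p = 0.0217). All 3 Yap-on values lay below the olfactory receptor percentile of their arrays (3.23 to 3.30), so dim signal limits the size of this difference. The Yap-on libraries were the lowest of all 12, since Mmp19 stood at 4.70, 4.84 and 5.10 in the wild-type organoids and at 4.13, 5.88 and 4.45 in the uninduced cells. The call was lost in 5 of 6 fits that left out 1 library, with adjusted p from 0.0658 to 0.0786, and was kept without the library labelled Yap-off 1.

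Mmp2 and Mmp14 belong to 1 pathway, as membrane-bound Mmp14 activates the gelatinase Mmp2. Mmp2 stood at 3.11, 3.20 and 3.14 in the Yap-on libraries, against 4.47, 3.54 and 3.99 in the Yap-off libraries, a difference of -0.85 (SE 0.29, limma adjusted p = 0.096). Mmp14 stood at 8.06, 7.90 and 7.80, against 8.32, 8.60 and 8.31, a difference of -0.49 (SE 0.44, limma adjusted p = 0.499). Neither passed on 12 arrays, although the groups did not overlap for either gene. On the 6 arrays both passed (limma adjusted p = 0.0275 and 0.0245). All Yap-on values of Mmp2 lay below the olfactory receptor percentile of their arrays (3.23 to 3.30). Mmp2 exceeded it in 5 of 12 libraries, so dim signal limits the size of its difference. Mmp14 was at 8.42, 8.71 and 6.61 in the wild-type organoids, so that 1 library lay far below the others, and at 7.42, 7.65 and 7.71 in the uninduced cells.

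Among the inhibitors Timp4 was the clearest. It stood at 3.42, 3.29 and 3.54 in the Yap-on libraries, against 5.79, 7.05 and 6.55 in the Yap-off libraries. The Yap-off libraries stood alone, because the wild-type organoids were at 3.61, 3.42 and 3.63 and the uninduced cells at 3.55, 3.56 and 3.64. Timp4 was 8.26-fold lower with Yap on (log2 difference -3.05, SE 0.26, limma adjusted p = 4.68e-05), and the call held in all 17 alternatives. The Yap-on values lay close to the olfactory receptor percentile of their arrays, 1 below and 2 above it, so dim signal limits the size of this difference.

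Timp1, an inhibitor known to be induced in injured liver, stood at 3.98, 4.0 and 4.73 in the Yap-on libraries, against 6.95, 7.78 and 6.31 in the Yap-off libraries. The groups were far apart, yet the difference of -2.78 (SE 1.12) did not pass on 12 arrays (limma adjusted p = 0.146). It passed on the 6 arrays (SE 0.39, limma adjusted p = 0.00216) and without the libraries labelled wild-type organoid 2 and uninduced 2 (limma adjusted p = 0.000338), a fit that called 12 members and 29.7% of all genes. The spread behind the larger error came from the remaining groups. Timp1 was at 3.67, 7.38 and 3.67 in the wild-type organoids and at 6.12, 3.03 and 6.70 in the uninduced cells.

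Timp1 lies on the X chromosome, as Xist does. Both were lower in every Yap-on library than in every Yap-off library. Timp1 also varied within the wild-type organoid and uninduced groups, as given above. A link between Timp1 and Xist was not tested.

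Timp2 and Timp3 were bright in all 12 libraries and were not called in the fit of all 12 arrays. Timp2, which also takes part in the activation of Mmp2, stood at 8.54, 8.39 and 8.16 in the Yap-on and at 8.23, 7.69 and 7.56 in the Yap-off libraries (difference 0.54, 95% interval -0.18 to 1.26). Timp3, which binds to matrix and also inhibits ADAM and ADAMTS proteases, varied widely within the Yap-on group, at 8.50, 9.31 and 6.65, against 8.54, 8.97 and 8.99 with Yap off. Its interval of -2.24 to 0.88 leaves changes of either sign. The 4 inhibitors thus showed 1 called decrease, and their values did not move as a block.

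**Figure D2:**
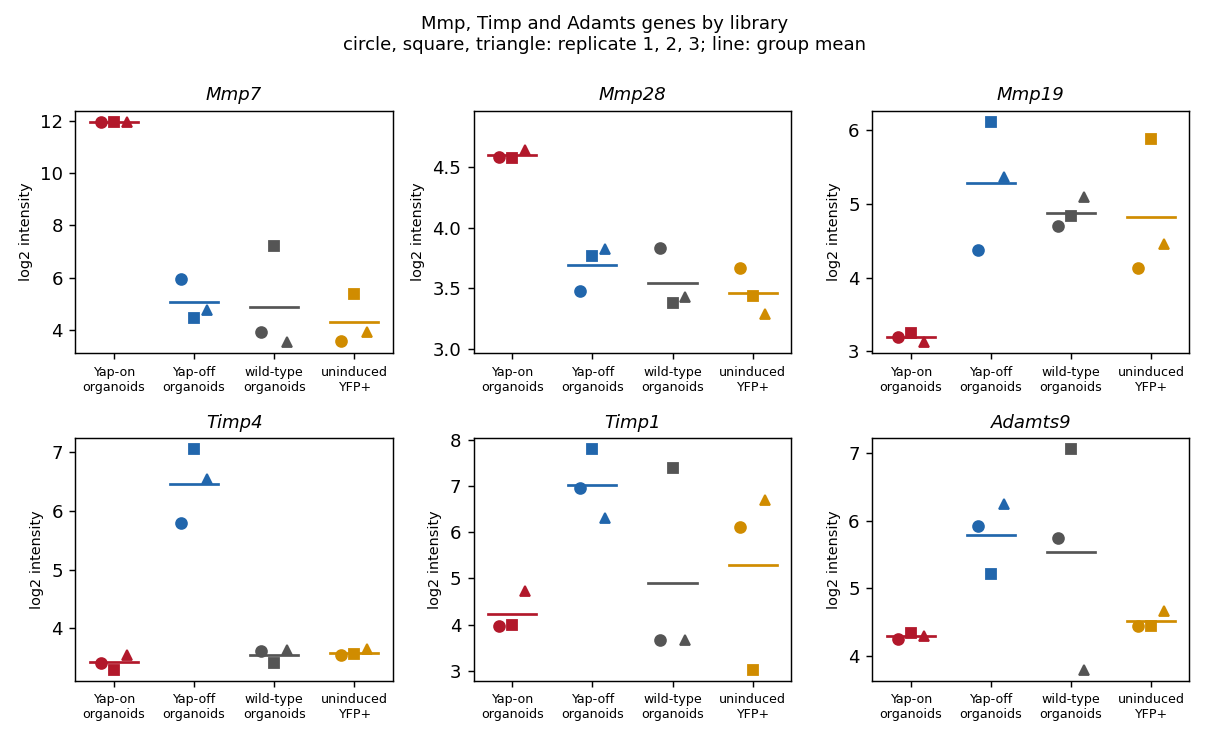
Log2 intensity of 6 members in every library, by group, with the group mean as a line; each panel has its own vertical axis. Yap-on libraries sit together near 11.94 for Mmp7, Yap-off libraries stand alone for Timp4 between 5.79 and 7.05, and the wild-type organoid and uninduced groups spread widely for Timp1.

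No Adamts gene was called higher with Yap on, and 2 of 18 were called lower in the fit on 12 arrays. That is 11.1%, beside 11.5% of all genes. Adamts9, a protease of the proteoglycans versican and aggrecan, showed the largest difference. It stood at 4.26, 4.34 and 4.30 in the Yap-on libraries, against 5.92, 5.21 and 6.24 in the Yap-off libraries. The difference of -1.49 (SE 0.64) did not pass on 12 arrays (limma adjusted p = 0.170), where the wild-type organoids, at 5.75, 7.05 and 3.80, add to the error, and it passed on the 6 arrays (limma adjusted p = 0.00473). The uninduced cells were at 4.45, 4.45 and 4.67. All 6 array rows of Adamts9 were lower with Yap on, with differences from -1.63 to -0.67.

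Adamts8 and Adamts12, the 2 members called lower, changed little and were dim. Adamts8, an anti-angiogenic member, stood at 3.13, 3.11 and 3.21 in the Yap-on libraries, against 3.50, 3.54 and 3.45 in the Yap-off libraries (difference -0.35, SE 0.09, limma adjusted p = 0.0354). Adamts12, a protease known from cartilage, stood at 3.09, 3.11 and 2.99, against 3.44, 3.33 and 3.49 (difference -0.36, SE 0.09, limma adjusted p = 0.0333). Only 1 of 12 libraries exceeded the olfactory receptor percentile of its array for Adamts8, and none did for Adamts12.

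The olfactory receptor genes themselves were dimmer in the Yap-on libraries, with medians of 2.51 to 2.56, against 2.65 to 2.72 in the Yap-off libraries. Of these 1027 genes, 92% were lower with Yap on, beside 57.6% of all genes. Both Adamts calls ended when quantile normalization was applied again (limma adjusted p = 0.322 for Adamts8 and 0.337 for Adamts12), when arrays were centred on their median, and when arrays were shifted to 1 olfactory receptor median. The split of the member calls was then 2 higher and 2 lower under the first and second of these scalings, and 3 higher and 2 lower under the third, beside 2 and 4 as deposited. Under the same 3 scalings 9.83%, 11.2% and 12.1% of all genes were called.

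**Figure D3:**
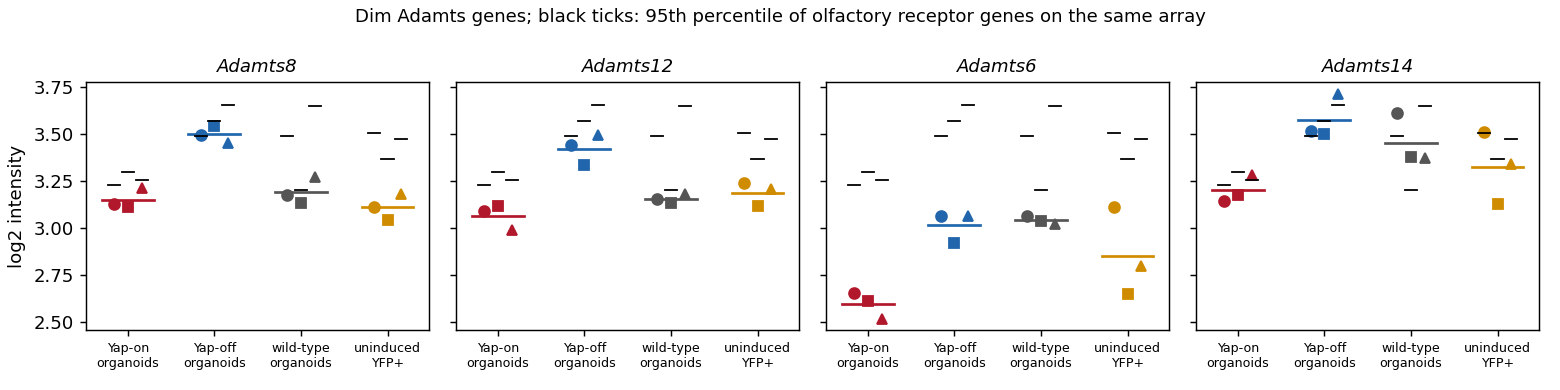
Log2 intensity of 4 dim Adamts genes in every library, with black ticks at the 95th percentile of 1027 olfactory receptor genes on the same array. Yap-on values lie below Yap-off values for all 4 genes, the ticks are lower in the Yap-on libraries too, and most points lie at or below their tick.

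Another 3 Adamts genes did not pass in the fit of all 12 arrays but passed on the 6 arrays, with array weights and without the libraries labelled wild-type organoid 2 and uninduced 2, all lower with Yap on. Adamts6 stood at 2.65, 2.61 and 2.52 in the Yap-on libraries, against 3.06, 2.92 and 3.06 in the Yap-off libraries (difference -0.42, limma adjusted p = 0.0162 on 6 arrays and 0.0577 on 12). Adamts14, which cuts procollagen, stood at 3.14, 3.17 and 3.28, against 3.51, 3.50 and 3.71 (difference -0.38, limma adjusted p = 0.0329 and 0.0918). Adamts10, known for its link to fibrillin, stood at 3.57, 3.60 and 3.43, against 3.92, 4.32 and 3.92 (difference -0.52, limma adjusted p = 0.029 and 0.213). Of these, Adamts6 did not exceed the olfactory receptor percentile in any library and Adamts10 exceeded it in all 12.

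The remaining 31 members were called in neither fit, and 29 of them differed by less than 0.5 either way. Of all 44 members, 16 (7 Mmp and 9 Adamts) never exceeded the olfactory receptor percentile of their array, 17 did so in some libraries and 11 in all 12. At such signal a low level cannot be told apart from absence. Counted without a test, 24 members had every Yap-on library below every Yap-off library and 3 had every one above. Together these are 27 of 44 members, beside 53.5% of all genes (24.6% above and 28.9% below), and 414 of the 1027 olfactory receptor genes also lay below.

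Within the chromosome 9 cluster Mmp7 was the only gene called in this comparison. Its neighbour Mmp20, known as the enamel protease, stood at 3.01, 3.07 and 3.14 in the Yap-on libraries, against 2.91, 2.94 and 2.88 in the Yap-off libraries (difference 0.16, limma adjusted p = 0.370). It never exceeded the olfactory receptor percentile, although it was called higher under the shift to 1 olfactory receptor median. The other 8 cluster genes differed by -0.28 to -0.04. Of the 7 genes with AP-1 letters, then, Mmp7 alone passed, and the other 6 did not exceed the olfactory receptor percentile in any library. No difference between neighbours was itself tested.

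Other cluster genes were high in other libraries. In the Yap-on and Yap-off libraries Mmp8 and Mmp12, with Mmp9 from another chromosome, stayed between 2.46 and 3.70, and none was called between them. Mmp8, the collagenase of neutrophils, was at 3.62, 2.55 and 4.01 in wild-type organoids 1 to 3 and at 2.74, 5.21 and 2.91 in uninduced cells 1 to 3. Mmp12, the elastase of macrophages, was at 3.58, 2.81 and 4.17 and at 3.11, 4.20 and 3.02 in the same order. For both genes, uninduced 2 and wild-type organoid 1 and 3 were the highest of these 6 libraries. Mmp27 was at 4.29, 2.92 and 5.90 and at 3.13, 4.62 and 3.08, with the same 3 libraries on top.

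Mmp9, a gelatinase of neutrophils and macrophages, also had these 3 libraries on top. It was at 6.33, 3.06 and 5.97 in the wild-type organoids and at 3.40, 5.60 and 3.11 in the uninduced cells. Neutrophil markers (10 of 10 measured) were high in the same 3 libraries, with a summed linear intensity of 120 to 139 in the Yap-on and Yap-off libraries, of 5079, 91.7 and 6038 in the wild-type organoids and of 151, 7055 and 153 in the uninduced cells. In these 3 libraries S100a8 and S100a9 made up 91% to 94.2% of the sum. Of the 10 genes 8 were higher in all 3 than in each of the other 9 libraries, and Ltf and Elane were not. Ltf was at 4.33, 4.19 and 4.55 in the Yap-on libraries, against 3.82 in wild-type organoid 1 and 4.10 in wild-type organoid 3. Of the macrophage list 13 of 14 genes, all but Cd14, were highest in these libraries, and the sums were 733 to 1175 in the Yap-on and Yap-off libraries, 19240, 632 and 29910 in the wild-type organoids and 502, 35830 and 657 in the uninduced cells. All 12 measured endothelial markers were highest there too, with sums of 108 to 140 in the Yap-on and Yap-off libraries, 13610, 108 and 7812 in the wild-type organoids and 146, 3526 and 143 in the uninduced cells. Their part in these values was not tested. In bulk RNA more cells of a type and more RNA per cell cannot be told apart.

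**Figure D4:**
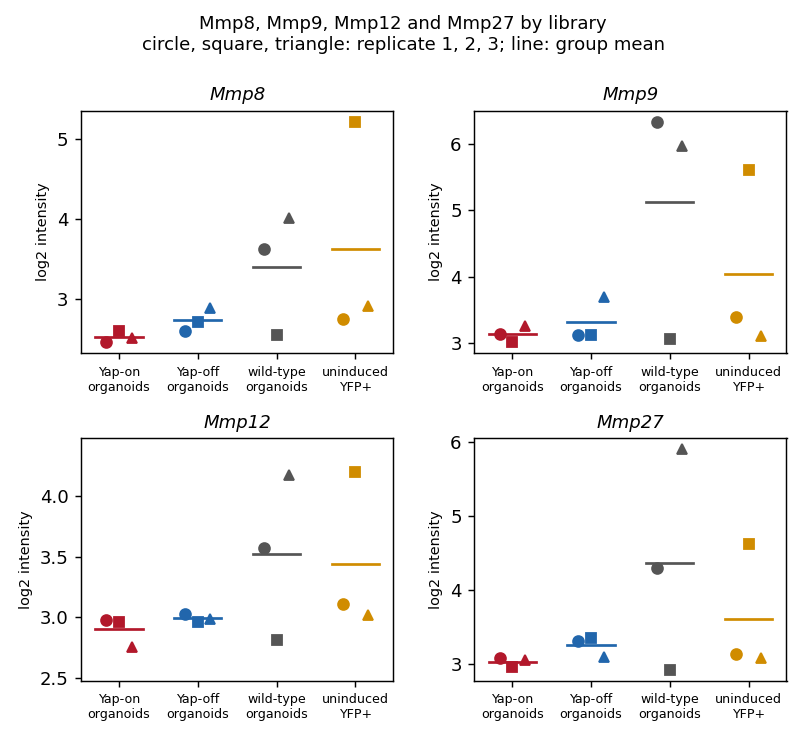
Log2 intensity of Mmp8, Mmp9, Mmp12 and Mmp27 in every library, by group, with the group mean as a line; each panel has its own vertical axis. In all 4 panels the library labelled uninduced 2 (square) and those labelled wild-type organoid 1 and 3 (circle and triangle) stand above the rest.

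Against the wild-type organoids, 2 members were higher in Yap-on organoids and 1 was lower, or 6.82%, beside 5.47% of all genes. Mmp7 (difference 7.06, SE 0.87, limma adjusted p = 0.000887) and Mmp28 (1.06, SE 0.16, limma adjusted p = 0.00315) rose, and both calls held in all 17 alternatives. Adamts10 fell by 1.14 (SE 0.25, limma adjusted p = 0.0252), but its call was lost in 7 of 17 alternatives. Without the libraries labelled wild-type organoid 2 and uninduced 2, 13 members were called, 2 higher and 11 lower, beside 41% of all genes. They included Mmp8, Mmp9, Mmp12 and Mmp27, the genes that were high in the 2 wild-type libraries then left.

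Against the uninduced cells, Mmp7 (7.64, SE 0.87, limma adjusted p = 0.000492) and Mmp28 (1.14, SE 0.16, limma adjusted p = 0.00172) were the members called in Yap-on organoids, both higher. That is 4.55% of members, beside 6.19% of all genes. Adamts1, a protease known from angiogenesis and ovulation, stood at 3.41, 3.68 and 3.31 in the Yap-on organoids, against 4.85, 4.75 and 4.64 in the uninduced cells. The groups did not overlap, but the gene did not pass in the fit of all 12 (limma adjusted p = 0.166). It passed on the 6 arrays (limma adjusted p = 0.00484), a fit that called 8.82% of all genes, and with array weights. In the Yap-off organoids it was at 3.84, 3.63 and 4.13, and in the wild-type organoids at 6.18, 5.22 and 3.78. Without the 2 libraries that stood apart 3 members were called, Mmp7, Mmp28 and Timp1, beside 21.6% of all genes. The comparisons with wild-type organoids and with uninduced cells share the Yap-on libraries, so the calls for Mmp7 and Mmp28 are not independent of each other.

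Timp4 was the member called in Yap-off organoids, and higher, against both other groups. The difference was 2.91 from the wild-type organoids (SE 0.26, limma adjusted p = 0.000948) and 2.88 from the uninduced cells (SE 0.26, limma adjusted p = 0.000866). Timp4 was dim in both of these groups, with 5 of the 6 libraries above the olfactory receptor percentile by a small margin and 1 below it, which limits the size of both differences. The 1 called member of 44 is 2.27%, beside 2.61% and 1.9% of all genes in these comparisons. Without the 2 libraries that stood apart, 11 and 2 members were called, beside 32.3% and 14% of all genes, and Timp4 was among them both times. Mmp7 was then also called higher in Yap-off organoids, by 1.33 against the wild-type organoids (SE 0.37, limma adjusted p = 0.0191) and by 1.30 against the uninduced cells (SE 0.37, limma adjusted p = 0.0444). The 2 libraries left out held the highest Mmp7 of their groups, at 7.20 and 5.37, so leaving them out raises both differences. On all 12 arrays Mmp7 was 1.13-fold and 1.7-fold higher in Yap-off organoids and was not called. Both comparisons share the Yap-off libraries.

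Between the wild-type organoids and the uninduced cells no member passed (limma on 12 arrays, and 0 members at an unadjusted p under 0.05), beside 0.0502% of all genes. The fit on the 6 arrays also called 0 members and 0% of all genes. Without the 2 libraries that stood apart 8 members were called, 7 higher and 1 lower in the wild-type organoids, beside 30.7% of all genes. The higher ones included Mmp8, Mmp9, Mmp12 and Mmp27, and the lower one was Timp1.

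Further lists of pericellular proteolysis were set beside the members for Yap-on and Yap-off organoids. No test compared the lists with one another or with all genes. The lists were chosen with earlier results of these data known, so their shares of called genes are descriptive only. Of 29 measured genes for other metalloproteases and protease activators, 4 rose and 3 fell (median difference -0.15, beside -0.23 for the members and -0.08 for all genes). That is 24.1% called, beside 11.5% of all genes. Plg, the plasminogen precursor made by hepatocytes, stood at 3.28, 3.02 and 3.50 in the Yap-on libraries, against 11.07, 11.36 and 11.39 in the Yap-off libraries (difference -8.01, limma adjusted p = 0.00433). Its activator Plau (urokinase) went the other way, at 7.10, 7.03 and 7.48, against 4.80, 4.84 and 4.91 (2.35, limma adjusted p = 0.0114). The membrane serine protease Tmprss4 rose by 4.09 (limma adjusted p = 3.14e-07), and the procollagen protease Bmp1, at -1.92, did not pass (limma adjusted p = 0.197).

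Of 20 other inhibitors, ADAMTS-like and matrix-binding genes, 2 rose and 5 fell (median -0.16). That is 35% called, beside 11.5% of all genes. Serpinf2, the plasmin inhibitor made by hepatocytes, fell by 7.13 (limma adjusted p = 1.38e-05) and Sparc, a collagen-binding protein, by 5.59 (limma adjusted p = 3.92e-06). Lrp1, the receptor that clears proteases bound to inhibitors, fell by 3.49 (limma adjusted p = 0.00165), while Spint1, an epithelial inhibitor of serine proteases, rose by 4.09 (limma adjusted p = 4.58e-05).

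Of 22 matrix substrates, 2 rose and 5 fell (median -0.38). That is 31.8% called, beside 11.5% of all genes. Fibronectin (Fn1) fell by 7.13 (limma adjusted p = 0.000732), nidogen (Nid1) by 4.40 (limma adjusted p = 0.0161) and versican (Vcan) by 2.80 (limma adjusted p = 0.0298). The Nid1 call was lost without the library Yap-on 2, Yap-on 3 or Yap-off 3 (limma adjusted p from 0.0551 to 0.0621), and the Vcan call without any 1 of the 3 Yap-on libraries or Yap-off 3 (0.0567 to 0.0982). The laminin chain Lamb3 rose by 3.74 (limma adjusted p = 0.00326). Of the hepatocyte markers 10 of 13 were called lower, with a median difference of -6.81. That is 76.9%, beside 4.36% of all genes called lower. Biliary markers had 4 of 9 called higher and a median of 3.43. That is 44.4%, beside 7.09% of all genes called higher. The part of the hepatocyte and biliary markers in these differences was not tested.

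**Figure D5:**
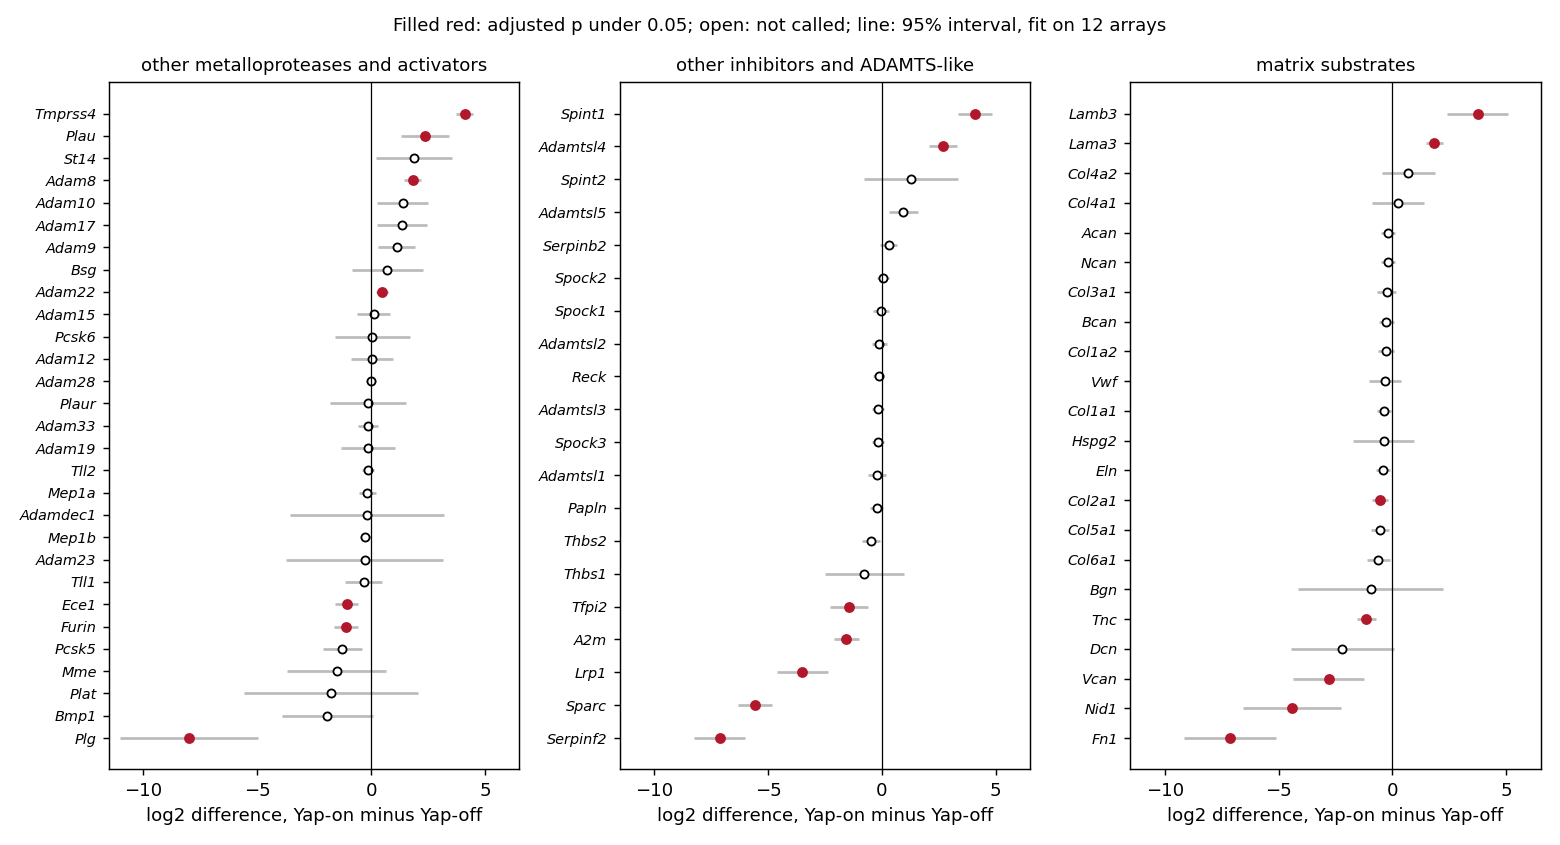
Log2 differences between Yap-on and Yap-off organoids, with 95% intervals from the fit on 12 arrays, for 29 other metalloproteases and activators, 20 inhibitors and ADAMTS-like genes and 22 matrix substrates. Plg, Serpinf2 and Fn1 lie below -7, and Tmprss4, Spint1 and Lamb3 lie at 3.74 to 4.09.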

How the data were processed

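The deposited values are intensities, 1 per array row, that the authors made with RMA per the submitters' processing notes (background subtraction, quantile normalization, probe summary). They are on a linear scale, and log2 was taken here. No version, detection calls or scan dates were used. Of 34760 rows, 21640 named 1 gene in the platform annotation, and the row with the highest mean was kept for each of 19937 genes. The 44 members came from 68 rows, and 3 of them (Adamts3, Adamts9 and Adamts17) had several. No row naming several genes included a member.

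Group means of all 12 arrays were fitted in limma 3.58.1 (R 4.3.3; residual degrees of freedom 8, prior 1.76), and the 6 comparisons were fitted again, each on its own 6 arrays. All adjusted p-values are limma's. A permutation test of 3 against 3 arrays cannot go below 0.1 (two-sided) and was not used. On simulated data the fit gave back the differences put in, but more than the nominal share of its calls was false, more so on 6 arrays than on 12. The number of arrays limits the precision. Full values are given for members called between Yap-on and Yap-off organoids in either fit and up to 5 called members of other comparisons. They are also given for members spanning over 2 log2 units and up to 4 genes of each further list. Timp2, Mmp12 and Mmp20 were added after their values were seen. Values of Mmp23, Adamts4 and Adamts7, and of the biliary markers set beside Mmp7, are also given outside these rules. Members and lists were chosen with earlier results of these data known. Replicate numbers are shared by the titles, but deviations of same-numbered libraries correlated from -0.711 to 0.118, so they were not treated as pairs. Figures were drawn with matplotlib 3.10.9.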

Additional observations from a re-analysis of the deposited data

How the results depend on the processing

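Of 41 differences named in the text and recomputed (691 values), 36 kept their sign in every alternative run. Of the values, 615 kept their sign and their side of the threshold, 43 lost and 27 gained a call. The 6 values with the other sign were all uncalled: Mmp12 (0.0648 after repeated quantile normalization and 0.0667 after the olfactory receptor shift), Yap1 (-0.0186 after repeated quantile normalization) and, when 1 library was left out, Mmp23 (-0.0972 to 0.641, lowest without Yap-on 1), Timp3 (-1.26 to 0.0677, highest without Yap-on 3) and Mmp9 (-0.28 to 0.00698, highest without Yap-off 3). Counts of called members moved as follows. For Yap-on against Yap-off organoids 6 members became 13 on the 6 arrays compared, 16 with array weights, 12 without the libraries labelled wild-type organoid 2 and uninduced 2, 3 with a 2-fold minimum, and 3 to 4 when 1 library was left out. In the same order 31.2%, 38.6%, 29.7%, 7.75% and 5.87% to 10.9% of all genes were called, beside 11.5% in the main fit. With array weights the counts were 17 and 9 for Yap-on and Yap-off organoids against wild-type organoids, 9 and 3 against uninduced cells, and 7 for wild-type organoids against uninduced cells. Beside these, 41.6%, 26.1%, 31.8%, 12.2% and 27.2% of all genes were called. Without the 2 libraries the counts of members were 13, 11, 3, 2 and 8 in the same order, beside 41%, 32.3%, 21.6%, 14% and 30.7% of all genes. Leaving out 1 library gave 2 to 8 and 1 to 5 against wild-type organoids, with the highest values without the library labelled wild-type organoid 2, then 2 to 2 and 1 to 1 against uninduced cells, and 0 to 0 between the controls. Over the same runs 2.88% to 30.2% and 0.507% to 19.4% of all genes were called against wild-type organoids. The shares were 3.67% to 9.71% and 0.567% to 4.2% against uninduced cells, and 0% to 8.05% between the controls. The replicate number as a block gave 4 called members for Yap-on against Yap-off organoids, beside 8.62% of all genes. This fit lost the calls of Adamts8 and Adamts12 (limma adjusted p = 0.0701 and 0.0704) and of Vcan (limma adjusted p = 0.0574). It changed no other call of the results recomputed. The labels do not say whether same-numbered libraries are pairs. The causes were not tested, except that fewer arrays change the estimate of spread. Dim signal limits Adamts and most cluster Mmp genes.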

Other observations

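Some members varied most within a group. Mmp23 stood at 5.58, 4.11 and 4.10 in the Yap-on libraries and at 4.29, 3.59 and 5.14 in the uninduced cells, against 4.12 to 4.35 in the Yap-off libraries, and it was not called (difference 0.39 between Yap-on and Yap-off organoids, limma adjusted p = 0.592). Adamts4, an aggrecan-cutting protease, and Adamts7 were highest in the library labelled wild-type organoid 1, at 4.69 and 5.06, against 3.24 and 3.80 in the lowest of the same group.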
